A study of Mus musculus with 116 samples.

Results

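The genes described here encode the oxidative phosphorylation complexes of the mitochondrial inner membrane. They were chosen by gene symbol on the array's annotation: symbols that start with Nduf, Uqcr or Atp5, symbols of Cox4 to Cox8 proteins, and Sdha, Sdhb, Sdhc, Sdhd, Cyc1 and Cycs. Of 15097 symbols measured, 87 were members, on 88 probes. Atp5md had 2 probes, which were averaged, and each other member rests on 1 probe.

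The RNA was that of FDB1, a myeloid cell line of the mouse kept in IL-3 that differentiates in GM-CSF, and was measured on spotted 2-colour arrays. FI-Delta cells and V449E cells are FDB1 cells that express a receptor mutant of that name. Both were grown in IL-3 (500 U/mL, 10% serum), washed 3 times at 0 hours and kept without factor for 6, 12, 24, 48 or 72 hours. Parental FDB1 cells were grown and washed in the same way and then kept in GM-CSF (500 U/mL) for the same times, and parental cells at 0 hours in IL-3 are the reference of that series. These 18 conditions had 2 replicates each, which gave 36 RNAs on 116 arrays in 28 comparisons. As background, the mutants are activated forms of the receptor subunit that GM-CSF and IL-3 share. V449E is known to drive growth without factor, and FI-Delta to let cells survive and differentiate without it. Whether replicates were cultured apart is not in the labels, so a p-value covers the spread between these RNAs only, which may be technical. The arrays hold ratios only, so no level could be set against another gene's, and the identity of the cells could be followed only by how markers moved.

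Oxidative phosphorylation moves electrons from NADH and succinate to oxygen and uses the proton gradient to make ATP. Complex I takes electrons from NADH and complex II, succinate dehydrogenase, takes them from succinate. Both pass them through ubiquinone to complex III, which hands them to the small carrier cytochrome c. Complex IV gives them to oxygen, and complex V, the ATP synthase, turns the gradient into ATP. All but complex II also contain subunits encoded in mitochondrial DNA, and no probe of a mitochondrially encoded gene was matched here. In myeloid cells, maturing granulocytes are known to rely largely on glycolysis.

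The members fell into 5 core and 26 accessory subunits of complex I, 4 subunits of complex II, 9 of complex III, cytochrome c itself, 10 of complex IV, and 5 F1 and 11 Fo or stalk subunits of complex V. The rule also matched 8 assembly factors, 6 isoforms restricted to certain tissues and 2 pseudogene symbols. Each RNA has a level on the log2 scale, relative to the mean of the 18 RNAs of its replicate, and a difference between conditions is a difference of such levels. The direction of the ratios, Cy5 over Cy3, is likely but not stated, and with the other direction every sign would turn. A member was counted as changed where limma's adjusted p over all 20243 features was under 0.05. A feature is a symbol, or a probe with no single symbol. Over all features a difference had a median standard error of 0.09. In bulk RNA such as this, fewer cells of a type and less RNA per cell cannot be told apart.

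Libraries and arrays varied as follows. Each RNA lay on 4 to 16 arrays, and the 2 arrays of a dye-swap pair correlated across probes at r of 0.0327 to 0.653 once the sign of 1 was turned. Over the 58 pairs, 6 of the 88 member probes had a dye-swap correlation below 0, those of Ndufa2, Cox8a, Sdha, Ndufs4, Cox7b2 and Uqcrh, against 17.1% of all probes. For these 6 members, poorly repeated ratios and a true lack of difference cannot be told apart by this correlation. Print run 2 holds all replicate 2 arrays of the GM-CSF series, so in that series the print run and the replicate cannot be told apart.

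FI-Delta cells after 72 hours without factor, compared with FI-Delta cells at 0 hours, had lower levels of many oxidative phosphorylation genes. Of 87 members, 21 fell (24.1%) and 0 rose. Over all features 8.70% fell and 6.89% rose in this comparison. At an unadjusted p under 0.05, 28 members were lower and 1 was higher. Here and below, such unadjusted counts stand without the share of all features, so they do not show that members changed more often. The falls were small, between 1.15-fold and 1.49-fold. The median member changed by -0.12 on the log2 scale, by -0.10 in replicate 1 and by -0.14 in replicate 2, while the median over all features was 0.00. In 51 members both RNAs at 72 hours lay below both RNAs at 0 hours, and in 6 members both lay above. Over all features these shares were 29.2% and 30.5%.

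**Figure D1:**
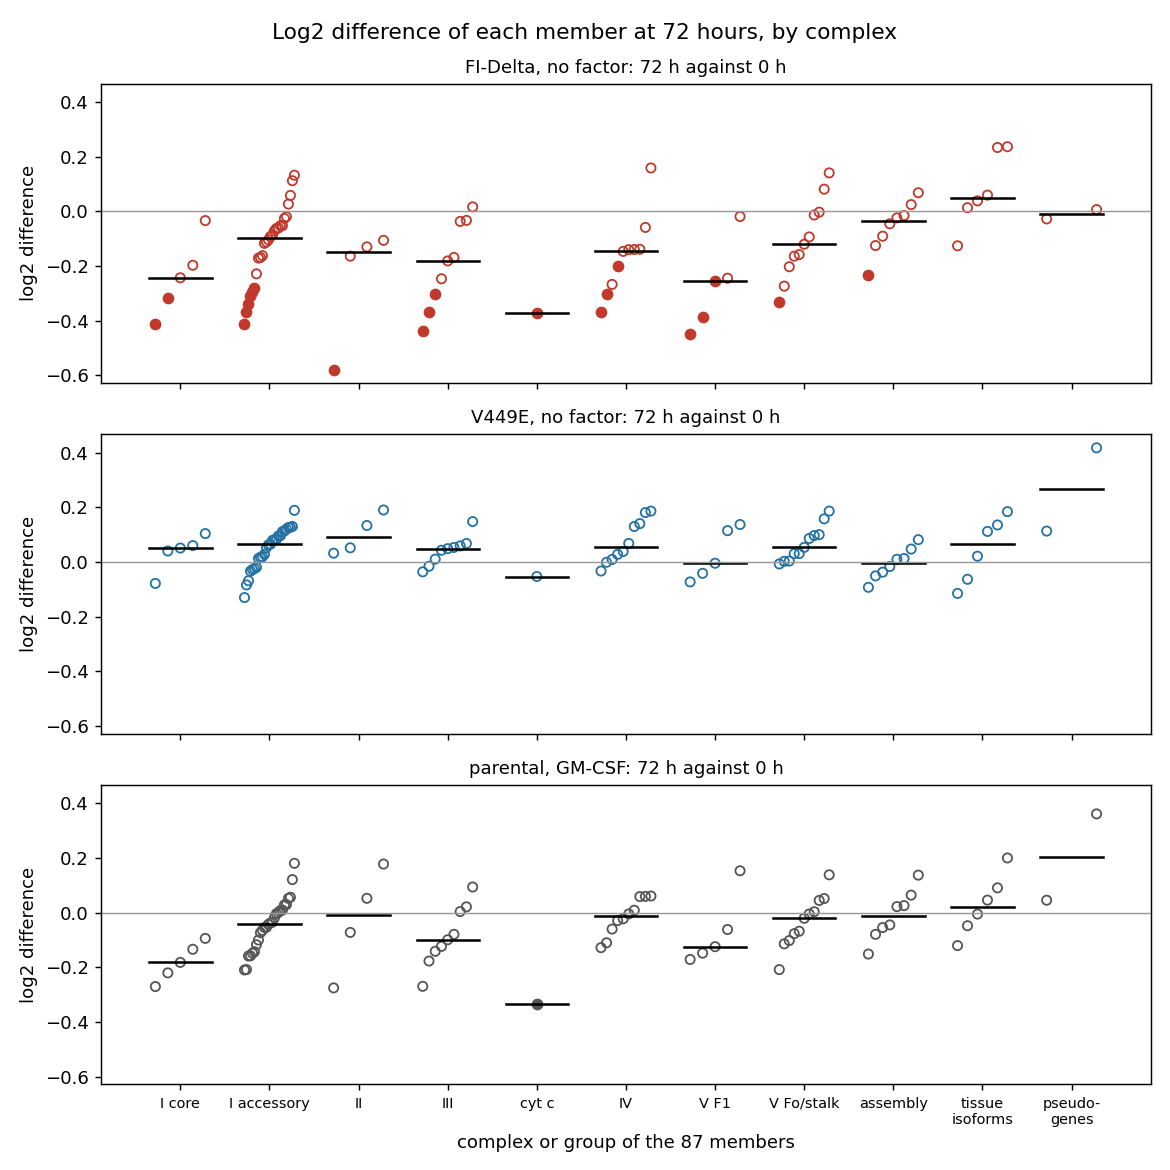
Log2 difference of each of the 87 members between 72 and 0 hours, by complex, in FI-Delta cells (top), V449E cells (middle) and parental cells in GM-CSF (bottom). Filled circles passed an adjusted p of 0.05, open circles did not, and bars are group medians. The 21 filled circles of FI-Delta cells lie below 0, V449E cells have none, and parental cells have 1, cytochrome c.

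The largest fall was that of Sdhd, one of the membrane anchors that tether complex II and bind ubiquinone. Its relative level was -0.56 and -0.38 in FI-Delta cells at 72 hours, against 0.08 and 0.14 in FI-Delta cells at 0 hours. Both 72-hour RNAs lay far below both 0-hour RNAs. The log2 difference was -0.58 (SE 0.09, adjusted p = 0.000169 by limma), a 1.49-fold fall. On the arrays that hold both RNAs, the log2 ratio of 72 over 0 hours was -1.02 and -0.71 in replicate 1 and -0.49 and -0.59 in replicate 2, lower on all 4 arrays. The other 3 subunits of the same complex did not pass: the flavoprotein Sdha differed by -0.13 (adjusted p = 0.357), the iron-sulfur subunit Sdhb by -0.11 (adjusted p = 0.566) and the other anchor Sdhc by -0.16 (adjusted p = 0.268). Complex II thus had 1 of 4 members past the threshold.

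In complex I, 2 of 5 core subunits and 6 of 26 accessory subunits fell. Ndufs3, a core subunit of the arm that faces the matrix, had a relative level of -0.40 and -0.31 in FI-Delta cells at 72 hours, against 0.07 and 0.05 at 0 hours. It fell by 0.41 on the log2 scale (SE 0.09, adjusted p = 0.00276), with no overlap of the groups. Ndufb5, an accessory subunit of the membrane arm, was at -0.34 and -0.21 at 72 hours, against 0.12 and 0.15 at 0 hours. Its difference was -0.41 (SE 0.10, adjusted p = 0.0078). The core subunit Ndufs1 and the accessory subunits Ndufc2, Ndufa9, Ndufs6, Ndufb2 and Ndufa10 also fell, by 0.28 to 0.37. These 6, like the other members outside the naming rule below, are named after their values were seen. The rule itself also takes members by size of difference, apart from the genes it always names. All 5 core subunits had a difference below 0 (median -0.24), and so did 22 of 26 accessory subunits (median -0.10).

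In complex III, 3 of 9 subunits fell. Uqcr10, a small subunit, had a relative level of -0.42 and -0.29 in FI-Delta cells at 72 hours, against 0.03 and 0.14 at 0 hours, a difference of -0.44 (SE 0.10, adjusted p = 0.00437). Uqcrc2, one of the large core proteins, was at -0.29 and -0.24 at 72 hours, against -0.01 and 0.22 at 0 hours, and differed by -0.37 (SE 0.11, adjusted p = 0.0272). Cyc1 encodes cytochrome c1, the haem protein that reduces cytochrome c, and was at -0.30 and -0.11 at 72 hours, against 0.07 and 0.13 at 0 hours. Its difference was -0.30 (SE 0.09, adjusted p = 0.0272). For each of the 3 subunits both 72-hour RNAs were the lower ones. The Rieske protein gene Uqcrfs1, named after its value was seen, differed by -0.25 and did not pass (adjusted p = 0.0892).

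Cycs, the gene of somatic cytochrome c, was at -0.34 and -0.26 in FI-Delta cells at 72 hours, against -0.0032 and 0.15 at 0 hours. It fell by 0.37 on the log2 scale (SE 0.09, adjusted p = 0.00537). In complex IV, 3 of 10 subunits fell: Ndufa4, first described with complex I and now placed in complex IV, by 0.37, Cox5a by 0.30 and Cox6a1 by 0.20. Cox6a1 had the smallest difference among the 21, with levels of -0.10 and -0.13 at 72 hours, against 0.10 and 0.07 at 0 hours (SE 0.07, adjusted p = 0.041).

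In complex V, of the F1 subunits, which form the catalytic head, 3 of 5 fell, while 1 of 11 Fo and stalk subunits fell. Atp5b, the catalytic beta subunit, was at -0.39 and -0.28 in FI-Delta cells at 72 hours, against 0.10 and 0.13 at 0 hours, a difference of -0.45 (SE 0.11, adjusted p = 0.00504). Atp5a1, the alpha subunit, was at -0.45 and -0.21 at 72 hours, against 0.02 and 0.10 at 0 hours, and differed by -0.39 (SE 0.08, adjusted p = 0.00273). Neither gene's groups overlapped. The third F1 subunit was Atp5d (delta, -0.26), and the stalk subunit was Atp5o (the oligomycin sensitivity protein, -0.33). Whether the 2 parts of complex V differ in their response was not tested.

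Outside the subunits, 1 of 8 assembly factors fell, Ndufaf1, which helps to build complex I (-0.23, adjusted p = 0.0383). None of the 6 tissue-restricted isoforms passed, and 5 of them lay above 0. Cox7a1, the heart and muscle form of a complex IV subunit, differed by 0.23 (adjusted p = 0.342) and Cox8c, known from testis, by 0.24 (adjusted p = 0.183). Cox4i2, a lung form, differed by 0.01, Cox6a2 and Cox8b, muscle forms, by 0.04 and 0.06, and Cox7b2 by -0.13, with adjusted p of 0.319 to 0.959. The pseudogene symbols Ndufs5-ps and Atp5k-ps1 differed by -0.03 and 0.01. Their probes may share sequence with the parent genes, so these values are uncertain.

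The fall in FI-Delta cells rested on all 4 RNAs. Fewer than 21 members passed whenever 1 of them was left out, which leaves 1 RNA in a condition. In some of these fits a smaller share of members than of all features passed, counting both directions. The median member was -0.12 without the 72-hour RNA of replicate 1 and -0.09 without the 0-hour RNA of replicate 2. It was -0.14 without the 72-hour RNA of replicate 2 and -0.17 without the 0-hour RNA of replicate 1. Over these fits Sdhd differed by -0.67 to -0.49 and Ndufs3 by -0.46 to -0.37. With every array scaled to the same spread 7 of 87 members passed, all lower, where 7.58% of all features passed in either direction. That share was close to the members' own, and the share of lower features alone is not given. On print run 1 alone 17 members were lower and 1 was higher, where 14.6% of all features passed in either direction. These included 16 of the 21.

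Markers of cell state moved in the same comparison. Genes of late granules rose in 4 of 6 (median log2 difference 1.53; 1.58 in replicate 1 and 1.47 in replicate 2), and macrophage genes in 4 of 7 (median 0.81, 0.89 and 0.73). All 4 mast cell genes fell (median -1.19, -1.38 and -1.04), as did the progenitor gene Cd34 among 6 early myeloid genes. No lymphoid gene of 4 and no erythroid gene of 2 passed. Their part in the change of the oxidative phosphorylation genes was not tested.

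The members' RefSeq promoters (GRCm38.p6, 250 bases before to 50 after each start) were searched on both strands for 3 motifs known from promoters of respiratory genes. These were GCGCATGC for nuclear respiratory factor 1 (NRF1), CCGGAAGT for ETS factors such as GABP, and AAGATGGC for YY1. Promoters were matched for 69 of 87 members, 74 windows in all. The NRF1 motif was in 14.9% of member windows, against 2.71% of all 32851 windows. The ETS motif was in 6.76% against 3.89%, and the YY1 motif in 14.9% against 2.75%. Among the 18 windows of members that fell in FI-Delta cells at 72 hours, the shares were 11.1%, 5.56% and 11.1%, and among the 56 windows of the other members 16.1%, 7.14% and 16.1%. Shown 5′ to 3′ are the windows of Sdhd, which fell most and held none of the motifs, and of 3 members that fell and held 1 each, with the motif in capitals: NRF1 in Cycs, ETS in Ndufs3 (both on the opposite strand) and YY1 in Ndufs6. A match is a description of these letters and not a bound site.
Sdhd, chr9:50603800-50604099, minus strand: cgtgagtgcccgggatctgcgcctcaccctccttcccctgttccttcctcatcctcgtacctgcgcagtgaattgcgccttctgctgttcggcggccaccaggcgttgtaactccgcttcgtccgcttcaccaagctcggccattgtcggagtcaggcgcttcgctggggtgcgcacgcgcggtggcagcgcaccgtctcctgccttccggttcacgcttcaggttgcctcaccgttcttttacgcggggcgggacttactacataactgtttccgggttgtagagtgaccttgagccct
Cycs, chr6:50566520-50566819, minus strand: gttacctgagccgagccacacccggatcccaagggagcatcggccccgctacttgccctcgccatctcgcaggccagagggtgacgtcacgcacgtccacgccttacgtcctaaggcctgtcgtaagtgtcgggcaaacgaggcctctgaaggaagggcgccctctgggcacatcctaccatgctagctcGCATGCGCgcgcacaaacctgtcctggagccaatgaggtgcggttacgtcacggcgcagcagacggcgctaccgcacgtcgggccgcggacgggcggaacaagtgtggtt
Ndufs3, chr2:90904672-90904971, minus strand: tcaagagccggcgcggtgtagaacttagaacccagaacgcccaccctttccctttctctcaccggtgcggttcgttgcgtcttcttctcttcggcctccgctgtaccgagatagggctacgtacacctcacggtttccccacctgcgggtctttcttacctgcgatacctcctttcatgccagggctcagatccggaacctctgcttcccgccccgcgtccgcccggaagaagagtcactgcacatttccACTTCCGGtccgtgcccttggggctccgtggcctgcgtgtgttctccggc
Ndufs6, chr13:73328433-73328732, minus strand: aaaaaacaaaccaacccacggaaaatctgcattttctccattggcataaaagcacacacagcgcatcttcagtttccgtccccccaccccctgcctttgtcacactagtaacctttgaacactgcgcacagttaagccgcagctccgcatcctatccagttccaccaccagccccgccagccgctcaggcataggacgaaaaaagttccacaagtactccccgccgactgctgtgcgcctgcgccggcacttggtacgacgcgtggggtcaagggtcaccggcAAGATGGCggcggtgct

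V449E cells at 72 hours, compared with FI-Delta cells at 72 hours, had higher levels of 12 members (13.8%) and lower levels of 0. Over all features 9.04% were higher and 7.78% lower. The median member was higher by 0.11 on the log2 scale (0.14 in replicate 1, 0.07 in replicate 2), against -0.01 over all features. At an unadjusted p under 0.05, 24 members were higher and 2 lower. In 44 members both V449E RNAs lay above both FI-Delta RNAs, and in 7 below, against 27.3% and 29.2% of all features. This comparison shares the 72-hour FI-Delta RNAs with the one above, so it is not a separate observation of those RNAs.

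Sdhd differed most here too, with levels of 0.10 and 0.15 in V449E cells, against -0.56 and -0.38 in FI-Delta cells. The difference was 0.60 (SE 0.09, adjusted p = 6.62e-05), a 1.51-fold higher level. Ndufb5 was at 0.16 and 0.27 in V449E cells, against -0.34 and -0.21 in FI-Delta cells (difference 0.49, SE 0.10, adjusted p = 0.00155). Ndufs3 was at 0.05 and 0.11, against -0.40 and -0.31 in FI-Delta cells (0.44, SE 0.09, adjusted p = 0.00141). In these 3 genes the groups were far apart. Uqcr10 was higher by 0.39 (adjusted p = 0.00985), with levels of 0.15 and -0.09 in V449E cells, against -0.42 and -0.29 in FI-Delta cells. The V449E replicates of Uqcr10 lay further apart than those of the genes before it.

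Atp5o, the stalk subunit, was at 0.16 and 0.10 in V449E cells, against -0.24 and -0.26 in FI-Delta cells, higher by 0.38 (SE 0.09, adjusted p = 0.00343). The members Ndufa4 (0.36, adjusted p = 0.0358), Ndufa9 (0.35, adjusted p = 0.0203), Atp5c1 (the gamma subunit of F1, 0.31, adjusted p = 0.0167) and Cycs (0.30, adjusted p = 0.0196) were higher as well. Named after their values were seen, Ndufa10, Atp5a1 and Cox6a1 completed the 12, with differences of 0.21 to 0.26. Of the other members of complex II and III, Sdha (0.16), Sdhb (0.11), Sdhc (0.21) and Cyc1 (0.20) did not pass, with adjusted p of 0.123 to 0.531. Among the tissue-restricted isoforms Cox7a1 differed by -0.34 (adjusted p = 0.131), Cox8c by -0.19, Cox6a2 by -0.14, Cox7b2 by 0.14, and Cox4i2 and Cox8b by 0.01 each, none past the threshold.

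Fewer than 12 members passed whenever 1 of the 4 RNAs was left out, which leaves 1 RNA in a condition. In most of these fits a smaller share of members than of all features passed, counting both directions. The median member was 0.09 without the FI-Delta RNA of replicate 1 and 0.12 without the V449E RNA of replicate 2. It was 0.07 without the V449E RNA of replicate 1 and 0.11 without the FI-Delta RNA of replicate 2. Over these fits Sdhd differed by 0.51 to 0.69, Ndufb5 by 0.43 to 0.56, Ndufs3 by 0.39 to 0.48 and Atp5o by 0.34 to 0.41. With the arrays scaled to the same spread 5 of 87 members passed, all higher, where 8.92% of all features passed in either direction. On print run 1 alone 11 members were higher and 1 was lower, where 16.1% of all features passed in either direction. These included 8 of the 12. Late granule markers were lower in 5 of 6 (median -3.17) and macrophage markers in 4 of 7, with 1 higher, and all 4 mast cell markers were higher in V449E cells (median 1.75). Of 6 early myeloid genes 1 was higher and 1 lower, of 2 erythroid genes 1 was higher, and of 4 lymphoid genes 0 passed. Their part in the difference was not tested.

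**Figure D2:**
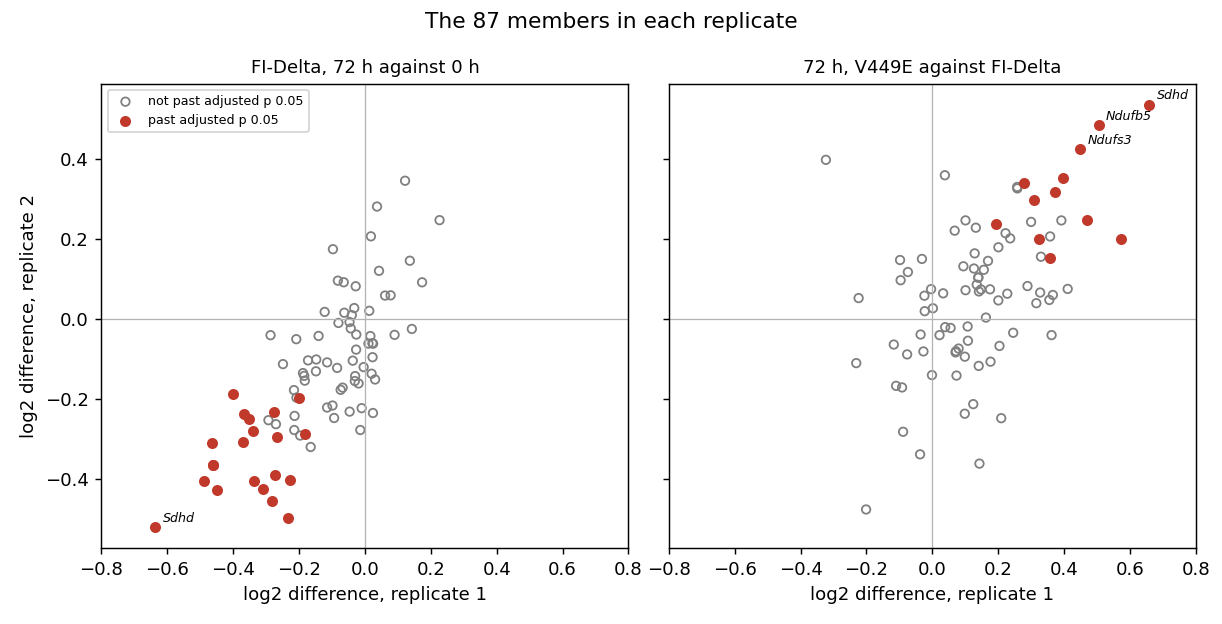
Log2 difference of the 87 members in replicate 1 (horizontal) and replicate 2 (vertical), for FI-Delta cells at 72 against 0 hours (left) and for V449E against FI-Delta cells at 72 hours (right). Filled points passed an adjusted p of 0.05. The 21 filled points at left are below 0 in both replicates, and the 12 at right are above 0 in both.

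Parental cells after 72 hours in GM-CSF had 1 member past the threshold, Cycs, compared with parental cells at 0 hours. Over all features 2.63% fell and 2.99% rose. Cycs was at -0.11 and -0.15 at 72 hours, against 0.14 and 0.27 at 0 hours, a difference of -0.33 (SE 0.09, adjusted p = 0.0253). It did not pass when any 1 of the 4 RNAs was left out (adjusted p 0.0573 to 0.206), and no member passed with the arrays scaled to the same spread. Sdhd differed by -0.28 (adjusted p = 0.0874), with -0.28 and -0.07 at 72 hours, against 0.13 and 0.07 at 0 hours. Of the other subunits named throughout, Sdhb differed by 0.18, Sdhc by 0.05, Sdha by -0.07 and Cyc1 by -0.12, none past the threshold. The 6 tissue-restricted isoforms lay between -0.12 and 0.20. The median member differed by -0.05, and 7 members were lower at an unadjusted p under 0.05. Macrophage markers rose in 5 of 7 (median 0.89) and late granule markers in 2 of 6, all 4 mast cell markers fell (median -1.15), 1 of 2 erythroid markers fell, and 0 of 6 early myeloid and 0 of 4 lymphoid markers passed. Their part in the Cycs value was not tested.

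V449E cells did not have a member past the threshold at 72 hours against 0 hours, and 0% of all features passed there. At an unadjusted p under 0.05 there was 1 member, which was higher. Their median member stood at 0.05 (0.05 in replicate 1, 0.08 in replicate 2). Sdhd differed by 0.03, with 0.10 and 0.15 at 72 hours, against 0.18 and 0.01 at 0 hours, so its groups overlapped. Sdhb differed by 0.19, Sdhc by 0.13, Sdha by 0.05, Cyc1 by 0.01 and Cycs by -0.05. At 24 hours, again 0 members passed (1.38% of all features), while 10 were higher and 1 lower at an unadjusted p under 0.05 and the median was 0.08. Sdhb, one of the genes named throughout, was at 0.26 and 0.17 at 24 hours, against -0.06 and -0.19 at 0 hours (0.34, SE 0.10, adjusted p = 0.0897).

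At 0 hours, V449E cells and parental cells in IL-3 did not differ in any member past the threshold (0.736% of all features did). The median member was -0.05, and 1 member was lower at an unadjusted p under 0.05. FI-Delta cells at 72 hours also had 0 members past the threshold against parental cells after 72 hours in GM-CSF (0.983% of all features), in a comparison that uses the same FI-Delta RNAs again, though 11 were lower at an unadjusted p under 0.05. Atp5b was at -0.39 and -0.28 in FI-Delta cells, against -0.03 and 0.10 in parental cells (-0.37, SE 0.11, adjusted p = 0.098). Atp5a1 was at -0.45 and -0.21, against -0.02 and -0.03 in parental cells (-0.31, SE 0.08, adjusted p = 0.0819), the lowest adjusted p of a member in this comparison.

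The time courses were not level before 72 hours. The median member relative to 0 hours of the same line was -0.06, -0.12, -0.03, 0.04 and -0.12 in FI-Delta cells at 6, 12, 24, 48 and 72 hours. In V449E cells it was -0.03, -0.02, 0.08, 0.09 and 0.05 at the same times. In parental cells in GM-CSF it was -0.10, -0.11, 0.04, 0.08 and -0.05. In each of the 3 series the median was below 0 at 6 and 12 hours and above 0 at 48 hours. The replicates did not always repeat it: at 6 hours the FI-Delta replicates had medians of 0.04 and -0.18, at 12 hours the parental replicates had -0.22 and -0.04, and at 48 hours the V449E replicates had 0.01 and 0.19.

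**Figure D3:**
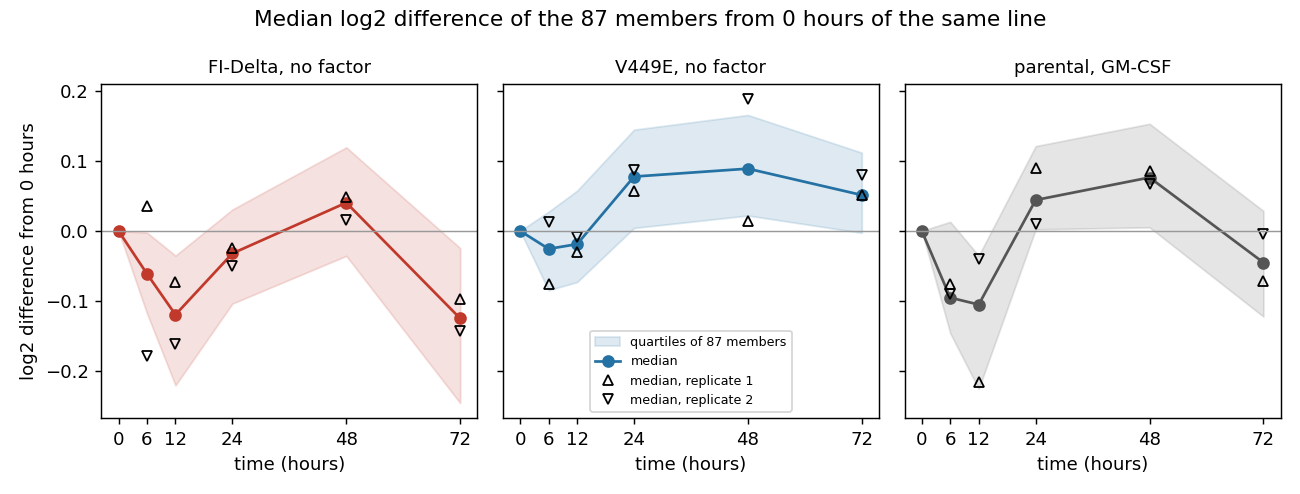
Median log2 difference of the 87 members from 0 hours of the same line (circles and line), quartiles of the members (shading) and the medians of replicates 1 and 2 (triangles), against time in hours. FI-Delta cells end at -0.12 at 72 hours, V449E cells at 0.05 and parental cells in GM-CSF at -0.05.

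Few members passed at those earlier times. In FI-Delta cells at 12 hours 3 of 87 fell, where 3.36% of all features fell, a share close to that of the members. At an unadjusted p under 0.05, 28 members were lower. The 3 members that passed are named after their values were seen. Ndufa4 was at -0.15 and -0.39 at 12 hours, against 0.07 and 0.29 at 0 hours (-0.45, SE 0.12, adjusted p = 0.0262). Ndufb5 was at -0.13 and -0.39, against 0.12 and 0.15 at 0 hours (-0.40, SE 0.10, adjusted p = 0.026). Ndufc1, a small accessory subunit of complex I, was at -0.24 and -0.22, against 0.07 and 0.19 at 0 hours (-0.36, SE 0.10, adjusted p = 0.0372). All 3 had lower values in both 12-hour RNAs. None of them passed without the 12-hour RNA of replicate 2 or without the 0-hour RNA of replicate 2 (adjusted p 0.207 to 0.419). Without the 12-hour RNA of replicate 1, Ndufc1 was lost (adjusted p = 0.142), and without the 0-hour RNA of replicate 1, Ndufb5 and Ndufc1 were lost (adjusted p = 0.0943 and 0.0761).

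Cox6a1, the form of this complex IV subunit found in most tissues, fell in parental cells given GM-CSF for 24 hours, where 0.306% of all features fell. Its level was -0.22 and -0.21 at 24 hours, against 0.15 and 0.08 at 0 hours (-0.33, SE 0.07, adjusted p = 0.00982). It was named after its value was seen and was lost without the 24-hour or the 0-hour RNA of replicate 1 (adjusted p = 0.0517 and 0.134). At 24 hours it was also lower in both RNAs of FI-Delta cells (-0.23, adjusted p = 0.0792) and of V449E cells (-0.20, adjusted p = 0.142), without passing. Its lowest mean level over the 18 conditions was thus at 24 hours in GM-CSF, a time at which the median member was above 0.

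Between V449E and FI-Delta cells at equal times before 72 hours, single members of complex III passed. At 24 hours Uqcr11 was lower in V449E cells, at -0.24 and -0.07, against 0.17 and 0.14 in FI-Delta cells (-0.31, SE 0.08, adjusted p = 0.0414), where 1.90% of all features were lower. At 48 hours Uqcrb was lower in V449E cells, at -0.19 and -0.13, against 0.39 and 0.07 in FI-Delta cells (-0.40, SE 0.11, adjusted p = 0.0293), where 4.70% of all features were lower. Both are small subunits and were named after their values were seen. Uqcr11 passed only without the V449E RNA of replicate 2 among its 4 fits that leave out an RNA (adjusted p up to 0.405), and Uqcrb only without the FI-Delta RNA of replicate 2 (adjusted p up to 0.458).

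No member passed in the remaining comparisons. In parental cells in GM-CSF, 0.361%, 3.02% and 1.30% of all features passed at 6, 12 and 48 hours, and in V449E cells 0.711%, 1.34% and 0.00494% at the same times. In FI-Delta cells 0.771%, 1.54% and 4.45% passed at 6, 24 and 48 hours. Between FI-Delta and parental cells the shares were 0.109%, 0.514%, 0.311%, 0.198% and 0.351% at 0, 6, 12, 24 and 48 hours. Between V449E and FI-Delta cells they were 0.232%, 0.805% and 1.10% at 0, 6 and 12 hours. Counting the main ones, 21 comparisons had no member past the threshold, with 1 to 26 members at an unadjusted p under 0.05. The highest of these counts was that of parental cells after 12 hours in GM-CSF, with 25 members lower and 1 higher.

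**Figure D4:**
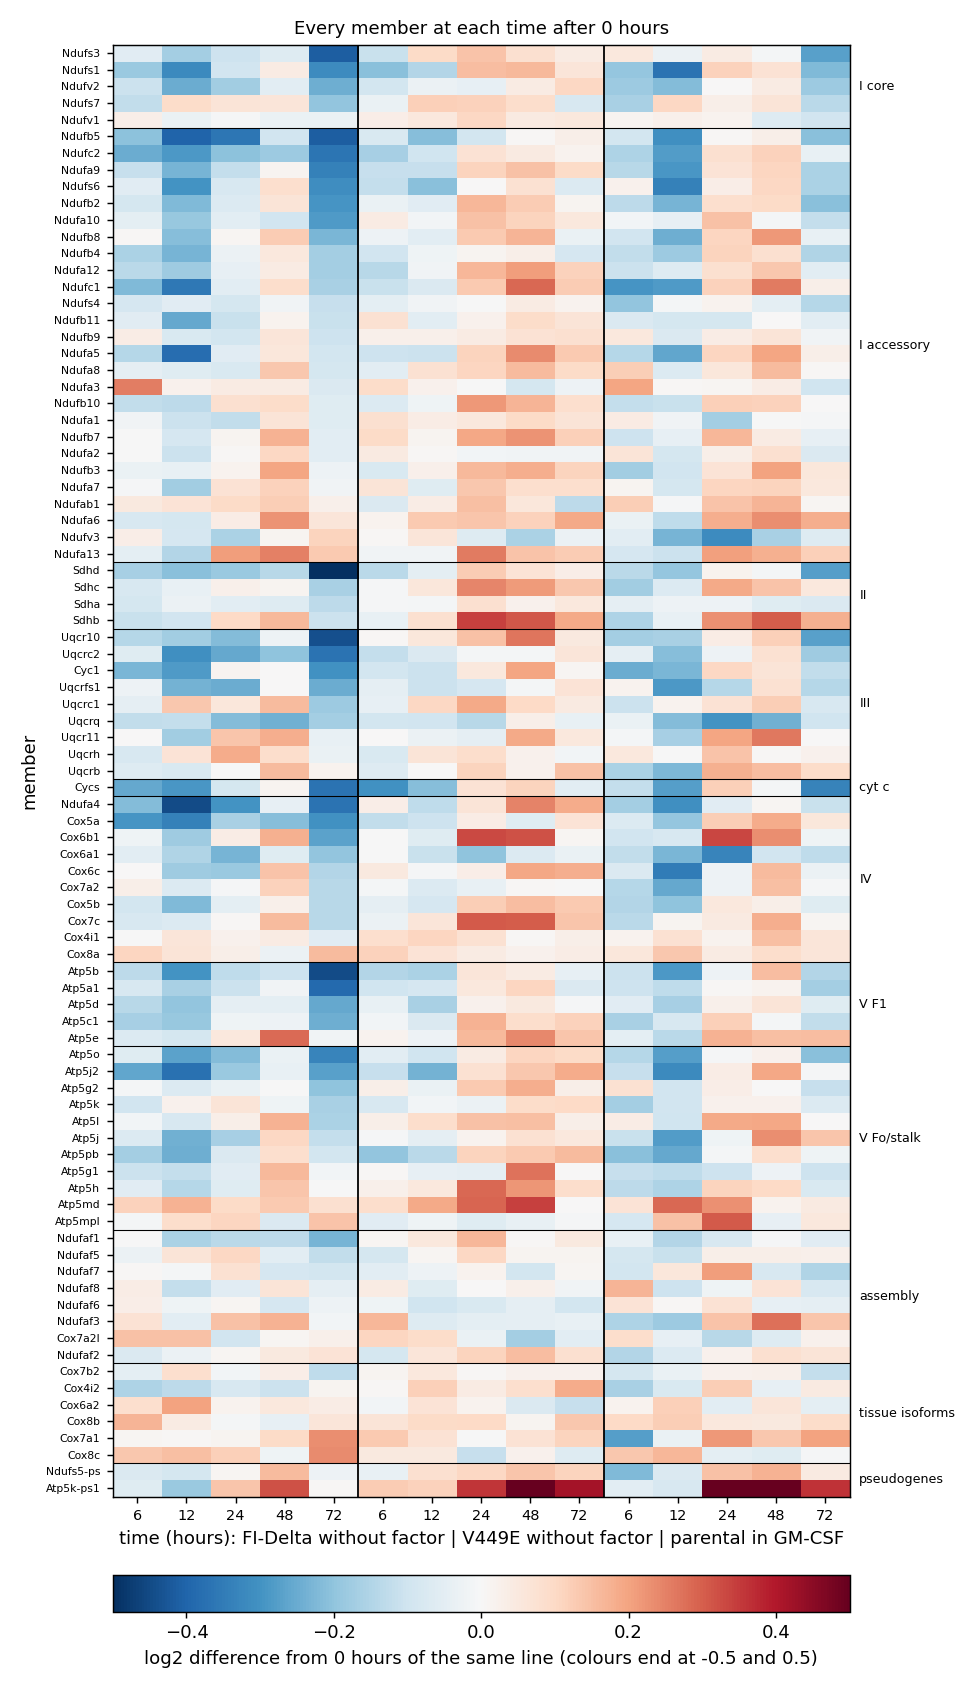
Log2 difference of each of the 87 members (rows, grouped by complex and ordered by the FI-Delta value at 72 hours) from 0 hours of the same line, at 6, 12, 24, 48 and 72 hours (columns), in FI-Delta cells, V449E cells and parental cells in GM-CSF. Blue is lower and red higher than at 0 hours. The columns with the lowest medians are those of FI-Delta cells at 12 and 72 hours (-0.12 each) and of GM-CSF at 6 and 12 hours (-0.10 and -0.11).

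The 72-hour responses of V449E and FI-Delta cells were set against each other directly. The difference of responses was 0.61 for Sdhd (SE 0.13, adjusted p = 0.0108), since Sdhd changed by 0.03 in V449E cells and by -0.58 in FI-Delta cells. It was the 1 member that passed, where 3.50% of all features passed, and 29 members had a more positive response in V449E cells at an unadjusted p under 0.05. With no replicate block 5 members passed, with RNAs weighted by their number of arrays 8, and on the arrays of the comparison alone 10. In other settings fewer passed: 3 without probes of poor dye swaps and 2 with arrays centred on their median. On print run 1 alone 1 passed, and with arrays scaled to the same spread 0. Shares of all features in these settings are not given, so the counts do not show that members passed more often than other features. Next by p came Ndufs3 (0.45, adjusted p = 0.0507) and Atp5o (0.43, adjusted p = 0.0519), which missed the threshold. The Sdhd value was lost without the V449E 0-hour RNA of replicate 2 (0.52, adjusted p = 0.125), without the FI-Delta 72-hour RNA of replicate 1 (0.52, adjusted p = 0.0838), without the FI-Delta 0-hour RNA of replicate 2 (0.58, adjusted p = 0.052) and with arrays scaled to the same spread (0.47, adjusted p = 0.133). No member differed in response between FI-Delta cells and parental cells in GM-CSF (3 at an unadjusted p under 0.05), or between V449E cells and parental cells (6 at an unadjusted p under 0.05).

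**Figure D5:**
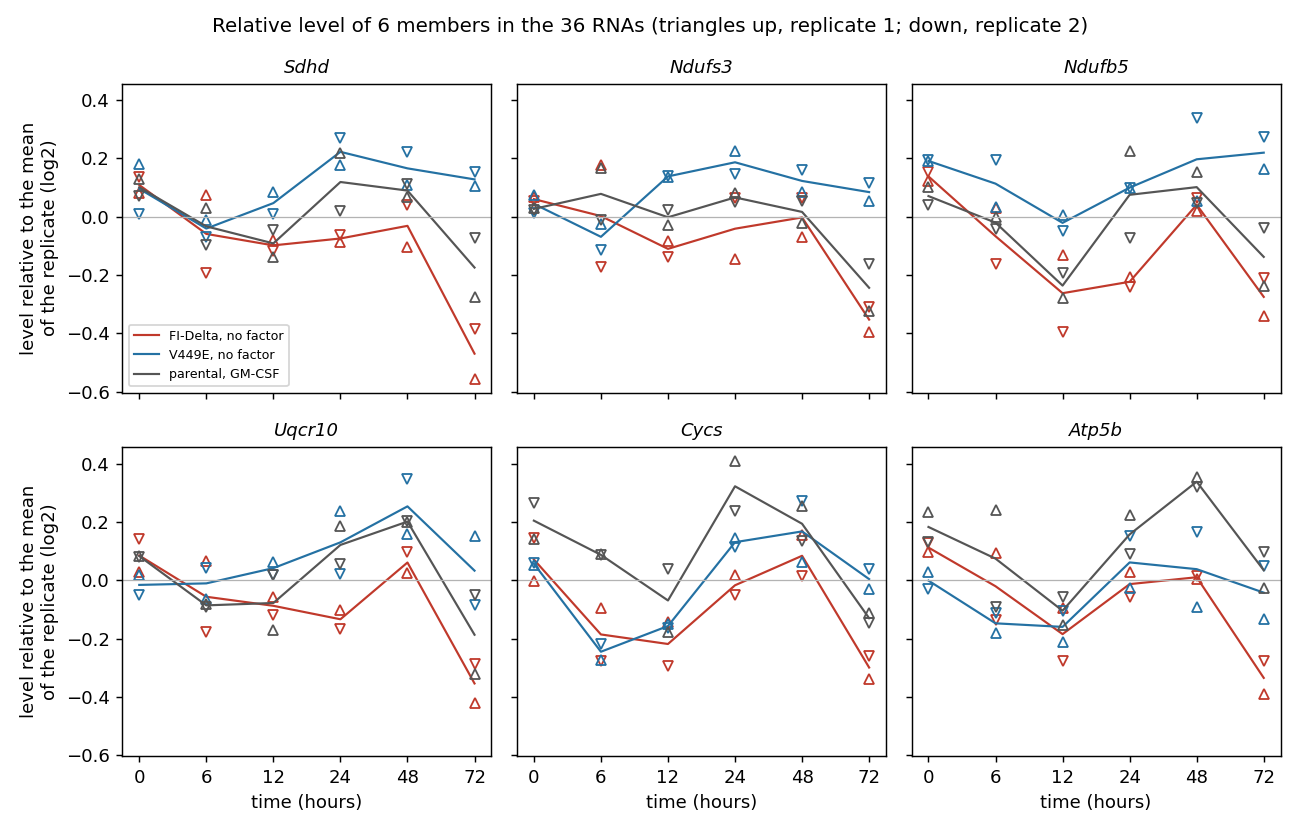
Relative level of Sdhd, Ndufs3, Ndufb5, Uqcr10, Cycs and Atp5b in the 36 RNAs, on the log2 scale, against time in hours (times evenly spaced), in FI-Delta cells, V449E cells and parental cells in GM-CSF. Lines join condition means and triangles are replicates. At 72 hours both FI-Delta RNAs of Sdhd, at -0.56 and -0.38, lie below all its other RNAs.

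Across all 18 conditions the members spanned small ranges. The median range of a member's condition means was 0.38 on the log2 scale, against 0.32 over all features. The widest was that of the pseudogene symbol Atp5k-ps1 (0.77), from -0.38 at 12 hours in GM-CSF to 0.39 in FI-Delta cells at 48 hours. Sdhd followed with 0.69, then Atp5b with 0.67, Cycs with 0.62 and the isoform Cox7a1 with 0.62. At the other end Ndufaf6 spanned 0.17, Cox8a 0.19 and Sdha 0.20, and 2 of these 3 have a dye-swap correlation below 0. Of the 87 members, 22 had their lowest mean level in FI-Delta cells at 72 hours and another 22 at 12 hours in GM-CSF. The highest mean level was at 48 hours in GM-CSF for 20 members and in FI-Delta cells at 48 hours for 18. No shares of all features stand beside these counts, so they describe the members only.

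To describe how far members moved alike, each member in one replicate was correlated over the 18 conditions with the mean of the other members in the other replicate, which share no array, and both directions were averaged. The median r was 0.34 for the members and -0.02 for all features, and 12 members (13.8%) had an r over 0.5, against 1.97% of all features. Ndufc1 (0.63) and Ndufs1 (0.61) were highest. The medians were 0.47 for the F1 subunits, 0.43 for complex IV, 0.43 for complex II, 0.37 for the accessory subunits of complex I, 0.34 for the Fo and stalk subunits, 0.32 for complex III and 0.26 for the core subunits of complex I. The 6 tissue-restricted isoforms had a median r of -0.08 and a highest value of 0.14. These correlations rest on 18 points and are descriptions.

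Genes of related mitochondrial pathways were followed from lists drawn up with the members. In FI-Delta cells at 72 against 0 hours, 8 of 15 genes of the citric acid cycle and pyruvate dehydrogenase fell and 0 rose. Over all features 8.70% fell and 6.89% rose in this comparison. Whether any of the lists here or in the next paragraph departs from the shares of all features was not tested. Idh3a, a subunit of NAD-dependent isocitrate dehydrogenase, differed by -0.61 (adjusted p = 0.0101) and Pdhb, a subunit of pyruvate dehydrogenase, by -0.49 (adjusted p = 8.67e-05). The succinyl-CoA ligase subunits Suclg2 and Suclg1 differed by -0.44 (adjusted p = 0.0208) and -0.41 (adjusted p = 0.00664). Of 17 carriers and pores 5 fell. The citrate carrier Slc25a1 (-0.57), the ADP/ATP carriers Slc25a4 (-0.56) and Slc25a5 (-0.43) and the outer membrane channel Vdac3 (-0.41) had the 4 largest falls. Of 33 other assembly factors 4 fell: Lrpprc (-0.45), which stabilises mitochondrial mRNA, Coa7 (-0.41), Acad9 (-0.29) and Tmem70 (-0.28).

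Among 15 regulators of mitochondrial biogenesis, Myc fell (-0.59, adjusted p = 0.012) and 0 rose. Nrf1, Tfam, Gabpa and Atpif1 are named after their values were seen. Nrf1 differed by -0.17 (adjusted p = 0.14), Tfam, the mitochondrial transcription factor, by -0.23 (adjusted p = 0.142), and Gabpa by -0.07 (adjusted p = 0.677). Atpif1, the inhibitor of the ATP synthase, differed by -0.21 (adjusted p = 0.204). In V449E against FI-Delta cells at 72 hours, 6 of 15 citric acid cycle genes were higher and 0 lower, and Myc was higher by 0.58 (adjusted p = 0.0117). Carriers went both ways there, with 3 of 17 higher (Slc25a1, Slc25a4 and Slc25a5, by 0.38 to 0.61) and 2 lower (Mpc1, -0.36, and Vdac2, -0.22). In that comparison 9.04% of all features were higher and 7.78% lower.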

How the data were processed

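RNA of 36 FDB1 samples was measured on 116 spotted 2-colour arrays. Per the labels, the authors normalised each array, and the deposited numbers are taken here as log2 ratios, while the submitters' processing notes name limma without a version. The direction Cy5 over Cy3 is likely but not stated, and background correction, log base and normalisation method are not given in the sources used here. Intensities were not used, so signal over background is unknown. Precision is limited by how many arrays hold each RNA.

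Of 23040 probes 1243 controls were left out. Dye-swap pairs were reduced to 1 mean ratio. A least-squares fit per replicate then turned ratios into a level for each RNA, relative to that replicate's mean. Probes were averaged per symbol. The 36 levels entered lmFit and eBayes of limma 3.58.1 under R 4.3.3, with terms for condition and for replicate number, because an array holds RNAs of 1 replicate number only. This left 17 residual and 5.78 prior degrees of freedom. Tests were 2-sided, with Benjamini-Hochberg adjustment over 20243 features. Steps were tested on simulated data. Promoters came from RefSeq (GRCm38.p6), and figures were drawn with Python 3.11.15.

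Members, gene lists and tests were chosen with earlier results of these data known. Named in each of 7 main comparisons were up to 8 higher and 8 lower members past the threshold by size of difference, and always the complex II subunits, Cyc1, Cycs and the tissue-restricted isoforms, with at most 4 genes of any other list. Alternatives left out the block, an RNA, a print run or probes with poor dye swaps, or changed weights, centring, scaling, the averaging of probes, the arrays used or the sign.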

Additional observations from a re-analysis of the deposited data

Results flagged for a closer look

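The response of Sdhd at 72 hours differed between V449E and FI-Delta cells by 0.61 on the log2 scale in a direct test of the difference of responses (SE 0.13, adjusted p = 0.0108 by limma). Sdhd changed by 0.03 in V449E cells and by -0.58 in FI-Delta cells. In V449E cells the replicates went opposite ways (-0.08 and 0.14), and in FI-Delta cells both fell (-0.64 and -0.52). Over the 8 fits that each left out 1 RNA the adjusted p ran from 0.00992 to 0.125.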

How the results depend on the processing

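Replicate numbers pair the samples because each array holds RNAs of 1 replicate number. With no replicate block, 21 members passed in FI-Delta cells at 72 against 0 hours and 16 in V449E against FI-Delta cells at 72 hours. In V449E cells at 24 against 0 hours 1 passed. Over all features 16.8%, 18.4% and 2.16% passed in these 3 comparisons. With arrays scaled to the same spread the 3 counts were 7, 5 and 1, where 7.58%, 8.92% and 2.42% of all features passed. Parental cells after 72 hours in GM-CSF then had 0 members (3.53% of all features). With weights by number of arrays, 1 member passed in V449E cells at 24 hours (2.04% of all features). In V449E against parental cells at 0 hours 3 passed, where 9.74% of all features did. Without probes of poor dye swaps, 1 passed in V449E cells at 24 hours (1.97% of the features kept), with a median of 0.0997. Print run 1 alone leaves 1 RNA of parental cells at 72 hours, assumed to vary like the other groups, and there 2 members passed against 0 hours, neither of them Cycs. At 72 hours, the median difference between FI-Delta and parental cells was -0.0533 with scaled arrays, -0.0700 without probes of poor dye swaps, -0.0470 on the direct arrays and -0.0112 in print run 1, again with 1 parental RNA. The cause of these shifts was not tested.

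Leaving out 1 RNA at a time assumes that the lone sample varies like the other groups. The count then ran from 1 to 12 in FI-Delta cells at 72 against 0 hours (median -0.1697 to -0.0908), from 4 to 11 in V449E against FI-Delta cells at 72 hours, and from 0 to 1 between FI-Delta and parental cells at 72 hours (median -0.0852 to -0.0232). It was 0 in each fit for parental cells at 72 hours. The median ran from 0.0429 to 0.119 in V449E cells at 24 hours and from 0.0176 to 0.0856 at 72 hours. Turning all signs gave the macrophage and late granule markers a median of -0.7074 in parental cells given GM-CSF for 72 hours, against 0.7074 as reported. Depth is unknown, since the ratios carry no intensities, and 2 replicates limit the precision.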
